A study of Mus musculus with 2 samples.

Results

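The 35 genes described here encode glucose transporters, the enzymes of glycolysis, the exit of pyruvate to lactate or to the mitochondrion, and the enzymes of the pentose phosphate pathway. They were chosen by name, as the rows whose gene symbol equals one of 35 listed symbols, out of 35522 features in the deposited tables. The rule uses no measured value. All 35 were found in both libraries.

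Glycolysis splits glucose into pyruvate and is the main source of ATP in neutrophils, which hold few mitochondria. The pentose phosphate pathway branches off at glucose-6-phosphate. Its oxidative arm makes NADPH, the electron donor of the NADPH oxidase that gives the respiratory burst, and its non-oxidative arm returns sugars to glycolysis or supplies ribose for nucleotides.

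Neutrophils were sorted by FACS from the bone marrow of Balb/C mice as CD11b(+) cells with high Ly-6G and low or no Ly-6C. They were cultured in complete RPMI-1640 with 10 ng/ml GM-CSF, a myeloid growth factor that both groups received. The PBS group was given PBS and the exosome group 20 μg/ml of exosomes from sphere-derived cancer stem cells (SDCSCs) of the murine colon cancer line CT26, each for 3 days, and mRNA was then sequenced. The mice were 5 to 8 weeks old, and sort purity was above 80%. Whether cells of several mice were pooled is not stated. Each group held 1 library, so no value below has a replicate error and no test of the treatment was possible.

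Levels are RPKM, reads scaled by exon length and by the mapped reads of the library, which can be compared between genes. Each log2 fold change compares the exosome library with PBS, without a pseudocount. The range after a log2 fold change is its 95% counting interval from estimated reads, which covers counting error alone and says nothing of variation between mice or cultures. A gene was kept at an RPKM of at least 0.25 in both libraries, and was called up where exosome to PBS reached 2-fold and down where it reached 0.5 or less. In the text, "rose" and "fell" stand for such calls. The estimated depth was 66.0 M reads in the PBS library and 79.1 M in the exosome library. The lowest number of estimated reads of any of the 35 genes in a library was 25, for Pfkm in PBS.

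The label of the cells was checked against marker genes. All 14 neutrophil markers were detected in both libraries, led by S100a8 and S100a9, and their summed level was 86223 RPKM in PBS and 34555 RPKM in the exosome library. Of these markers, 11 were lower with exosomes, and 10 of them fell. All 13 monocyte or macrophage markers were higher with exosomes, 5 of them by the call rule, with a summed level of 283 RPKM in PBS and 687 RPKM in the exosome library. Csf1r, the receptor for macrophage colony-stimulating factor, was at 58.1 and 152.64 RPKM and C1qa, a complement chain of macrophages, at 0.18 and 1.42 RPKM. The lymphocyte markers summed to 72.1 and 45.1 RPKM. The 8 epithelial markers, the kind the exosome-producing cells could carry, summed to 1.20 and 1.06 RPKM, with Krt8 and Cldn4 at 0 in both. Because whole cultures were measured, fewer cells of a type and less RNA per cell cannot be told apart. The part of these marker differences in the values below was not tested.

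The ratios of all features were not centred on zero. Over the 9698 features kept, the median log2 fold change was 0.53, and 31.5% were called up against 5.62% called down. The shift depended on level: features near 1 RPKM lay highest, and those of high RPKM lay near zero. Calls are therefore also given after the median of all features, a trimmed mean of log ratios, or a running median of features at a like level had been removed.

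Of the 35 genes, 34 were kept and Pfkm was not. The 10 that rose were Pfkl, Pfkp, Pfkfb3, Aldoc, Tpi1, Ldha, Ldhb, Slc16a1, Pdk1 and Rpe. That is 29.4% of the genes kept, near the share of all features. Another 3 fell, namely Slc2a3, Hk3 and Pdk3, which is 8.82%. The other 21 lay within 2-fold. The median log2 fold change was 0.75, and the summed level of the 35 genes was 5002 RPKM in PBS and 4930 RPKM in the exosome library. As deposited, the share of genes that rose was thus close to that of all features. Along the pathway, glucose uptake and phosphorylation were lower in sum, phosphofructokinase and triose phosphate isomerase were higher.

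**Figure D1:**
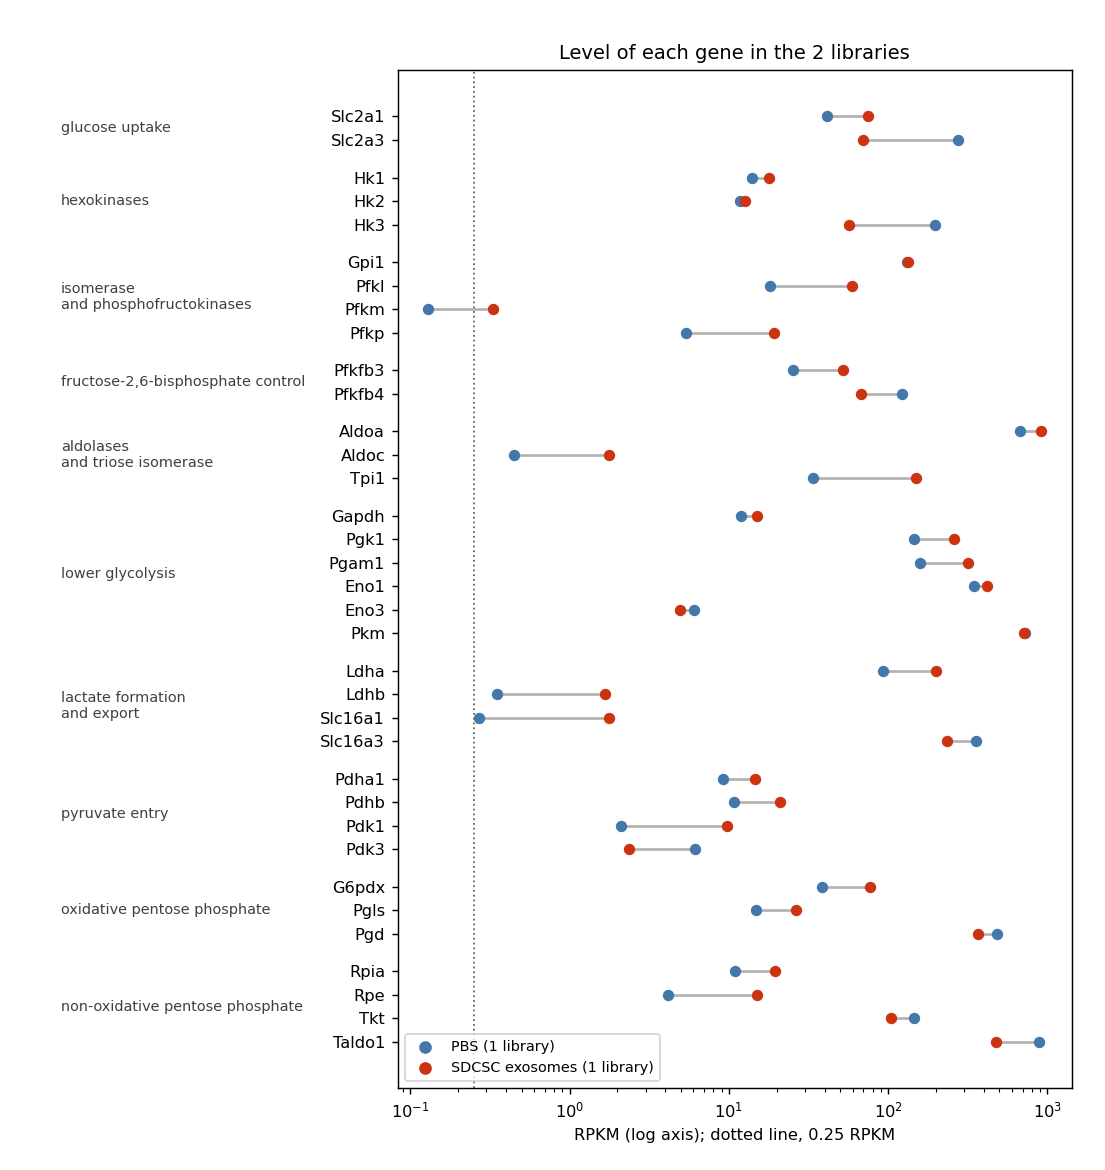
RPKM of each of the 35 genes in the PBS library (blue) and the SDCSC exosome library (red), on a log axis and grouped by step of the pathway; each point is 1 library and the dotted line marks 0.25 RPKM. Slc2a3 and Hk3 lie far to the left with exosomes, whereas Pfkl, Pfkp and Tpi1 lie to the right, and Gpi1 and Pkm stay in place.

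Promoter sequences of 4 genes are printed here because their genes stand at the control points described below: Hk3, which fell, and Pfkl, Ldha and Slc16a1, which rose. Each is the 250 bases before the annotated start in RefSeq GRCm38.p6, read 5′ to 3′ on the strand of the gene. Capitals mark ACGTG on either strand, the core letters bound by hypoxia-inducible factors and by E-box factors such as Myc, where it reads CACGTG on both strands. The Hk3 window is chr13:55021386-55021635 on the minus strand, and the Pfkl window is chr10:78009808-78010057 on the minus strand. The first Ldha start has the window chr7:46845554-46845803 on the plus strand, and Slc16a1 has chr3:104638414-104638663 on the plus strand.
Hk3: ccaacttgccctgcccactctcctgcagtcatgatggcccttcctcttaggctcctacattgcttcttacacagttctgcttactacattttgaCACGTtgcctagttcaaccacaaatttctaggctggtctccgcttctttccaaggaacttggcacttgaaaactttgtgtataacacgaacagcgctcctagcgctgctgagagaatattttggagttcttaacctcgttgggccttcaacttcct
Pfkl: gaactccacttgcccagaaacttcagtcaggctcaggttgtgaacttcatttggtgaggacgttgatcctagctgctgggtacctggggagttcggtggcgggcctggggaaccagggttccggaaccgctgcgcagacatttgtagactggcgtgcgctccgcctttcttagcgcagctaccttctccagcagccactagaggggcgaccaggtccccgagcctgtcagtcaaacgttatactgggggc
Ldha: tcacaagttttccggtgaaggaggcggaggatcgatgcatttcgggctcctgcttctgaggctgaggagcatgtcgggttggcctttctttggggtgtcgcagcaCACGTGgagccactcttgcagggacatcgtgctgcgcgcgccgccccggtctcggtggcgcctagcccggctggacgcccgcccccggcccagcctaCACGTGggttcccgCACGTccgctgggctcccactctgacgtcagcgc
Slc16a1: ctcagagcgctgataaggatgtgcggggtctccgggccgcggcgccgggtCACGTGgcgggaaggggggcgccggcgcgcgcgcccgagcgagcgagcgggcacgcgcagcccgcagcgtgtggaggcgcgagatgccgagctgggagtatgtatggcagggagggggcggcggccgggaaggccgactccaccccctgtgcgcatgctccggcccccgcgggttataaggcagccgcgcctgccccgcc

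The Ldha window holds 3 separate matches, the Hk3 and Slc16a1 windows 1 each, and the Pfkl window none. Promoters of 34 of the 35 genes were matched, Slc2a3 being the other. ACGTG was found in at least 1 promoter of 14 of these 34 genes (41.2%), and in 4998 of 27025 genes in the whole table (18.5%). Genes with several starts have more windows to match, and the whole table holds genes whether or not they were expressed. These shares were not matched for either. The second Ldha start, not printed, has no match. ACGTG was present in 3 of the 10 genes that rose, in 8 of the 21 within 2-fold and in both of the genes that fell and had a promoter. The 6-letter form CACGTG was found in 4 of the 34 genes (11.8%), against 6.86% of all genes. A match describes letters in a window and is not a bound site. A window without ACGTG can hold GCGTG, the form that was not searched, as the printed Pfkl window does.

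Glucose enters neutrophils through facilitative transporters. Slc2a3, which encodes the high-affinity transporter GLUT3 (chromosome 6, 122727809 to 122801640, minus strand, GRCm38), was at 275.42 RPKM in PBS and 69.56 RPKM with exosomes. It fell by 1.99 on the log2 scale (-2.01 to -1.96), to a ratio of 0.253. Slc2a1, which encodes the widely expressed transporter GLUT1, was at 41.49 RPKM in PBS and 74.36 RPKM with exosomes, a log2 fold change of 0.84 (0.81 to 0.88) that stayed under the call. The balance of the pair moved accordingly: Slc2a1 made up 13.1% of their summed RPKM in PBS and 51.7% with exosomes. The sum of this pair was 316.91 RPKM in PBS and 143.92 RPKM with exosomes, 2.20-fold lower. It leaves out Slc2a6, a further transporter of the Slc2a family from the list of other pathway genes. Slc2a6 was at 116.9 RPKM in PBS and 106.79 RPKM with exosomes, a log2 fold change of -0.13 (-0.16 to -0.10).

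The hexokinases trap glucose in the cell as glucose-6-phosphate, which feeds both pathways. Hk3, the isozyme typical of myeloid cells (chromosome 13, 55005985 to 55021385, minus strand), was at 196.49 RPKM in PBS, rank 220 of all features, and at 57.14 RPKM with exosomes, rank 989. Its log2 fold change was -1.78 (-1.81 to -1.75). Hk1, the general isozyme, was at 13.99 and 17.89 RPKM, and Hk2, the inducible one of muscle and tumours, at 11.69 and 12.58 RPKM. Their log2 fold changes of 0.35 and 0.11 turned below zero after any of the 3 centrings. Hk3 thus remained the main hexokinase, but its share of the summed hexokinase RPKM was 88.4% in PBS and 65.2% with exosomes. The sum was 222.17 RPKM in PBS and 87.61 RPKM with exosomes, 2.54-fold lower.

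A further kinase of glucose was measured in the list of other pathway genes. Adpgk, the ADP-dependent glucokinase, was at 186.5 RPKM in PBS and 19.93 RPKM with exosomes. It had the lowest log2 fold change of that list, -3.23 (-3.27 to -3.18), and its rank among all features moved from 236 to 2687. Summed RPKM of the hexokinases with Adpgk was 408.67 in PBS and 107.54 with exosomes. The 2 most abundant transcripts for a glucose kinase in PBS, Hk3 and Adpgk, were therefore both called down. Of the 14 neutrophil markers, 11 were lower in the same exosome library. Among these, Ly6g and Camp, a granule protein of late neutrophil precursors, had log2 fold changes of -2.35 and -3.49. The other 3 were higher, namely Lcn2 (1.33), Mpo (0.62) and Elane (0.33). The part of these marker differences in the decrease of Slc2a3, Hk3 and Adpgk was not tested.

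Gpi1, the isomerase that turns glucose-6-phosphate into fructose-6-phosphate, was at 131.42 RPKM in PBS and 132.94 RPKM with exosomes, a log2 fold change of 0.02 (-0.01 to 0.04). The next enzyme, phosphofructokinase, commits the sugar to glycolysis. Pfkl, its liver-type subunit and the main one in neutrophils (chromosome 10, 77986947 to 78010083, minus strand), was at 18.12 RPKM in PBS and 59.45 RPKM with exosomes, a log2 fold change of 1.71 (1.67 to 1.76). Pfkp, the platelet-type subunit, was at 5.4 and 19.09 RPKM, a log2 fold change of 1.82 (1.74 to 1.91). Both rose by a like amount, so the Pfkl share of the family was 76.6% in PBS and 75.4% with exosomes. The muscle-type Pfkm was near the floor at 0.13 and 0.33 RPKM.

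In summed RPKM, phosphofructokinase and the hexokinases before it therefore differed in opposite directions. Of the hexokinases, Hk3 alone was lower as deposited. Summed phosphofructokinase RPKM was 23.65 in PBS and 78.87 with exosomes, 3.33-fold higher. Its ratio to the summed hexokinases was 0.106 in PBS and 0.900 with exosomes, an 8.46-fold difference. A ratio taken within a library does not move with any scaling that applies 1 factor to a whole library. With Adpgk counted among the hexokinases the ratio was 0.0579 in PBS and 0.733 with exosomes.

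Fructose-2,6-bisphosphate, the strongest activator of phosphofructokinase, is made and removed by the bifunctional Pfkfb enzymes. Pfkfb3, the isozyme with the highest kinase activity, was at 25.13 RPKM in PBS and 51.91 RPKM with exosomes, a log2 fold change of 1.05 (1.01 to 1.08). This was just past the call and was lost after each of the 3 centrings, with 0.51 to 0.89. Pfkfb4 was at 121.93 RPKM in PBS and 67.5 RPKM with exosomes, a log2 fold change of -0.85 (-0.88 to -0.83). It was called down after median centring, with -1.38, but not after removal of the running median at its level, with -0.86. Pfkfb4 was the more abundant of the pair in both libraries, while the Pfkfb3 share was 17.1% in PBS and 43.5% with exosomes. The ratio of Pfkfb3 to Pfkfb4 was 0.206 in PBS and 0.769 with exosomes.

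**Figure D2:**
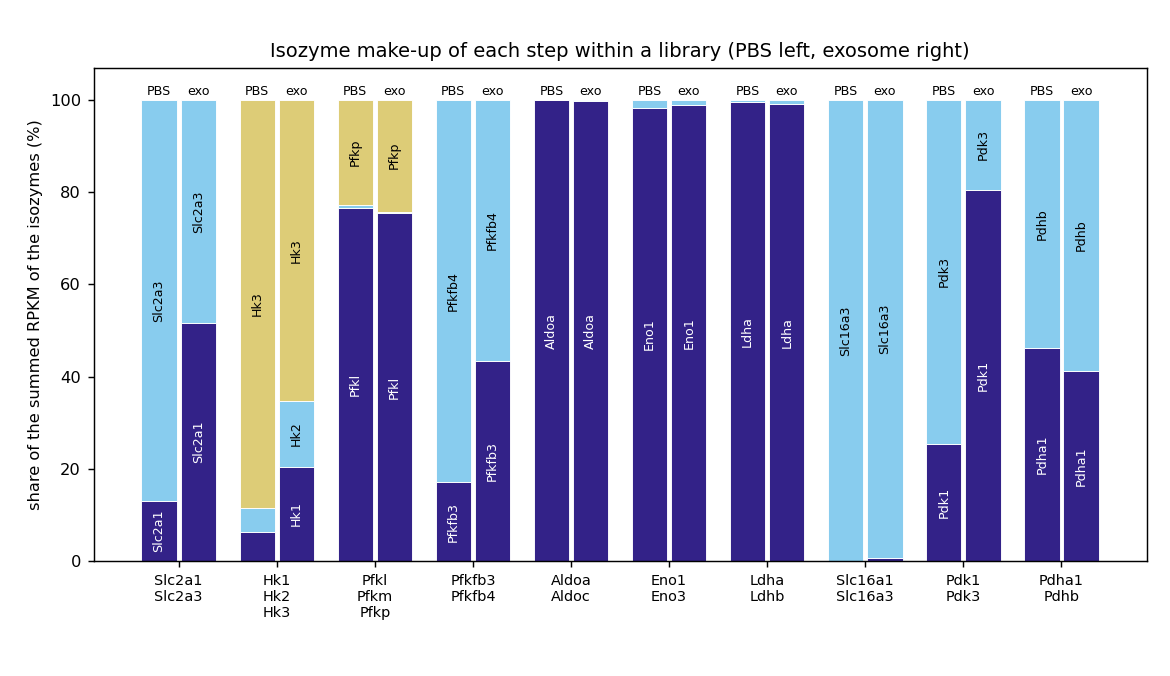
Share of each isozyme or subunit in the summed RPKM of its family (vertical axis, percent) in the PBS library (left bar of each pair) and the exosome library (right bar). The glucose transporters, hexokinases, Pfkfb enzymes and pyruvate dehydrogenase kinases differ between the bars, while phosphofructokinase, aldolase, enolase and lactate dehydrogenase keep 1 main form in both.

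Aldolase cleaves the doubly phosphorylated sugar into a pair of trioses. Aldoa, the main aldolase, was among the most abundant transcripts of the cells, with 673.24 RPKM in PBS (rank 44) and 915.51 RPKM with exosomes (rank 27). Its log2 fold change was 0.44 (0.43 to 0.46), and -0.08 after median centring. Aldoc, the brain-type form, rose by 1.98 on the log2 scale (1.62 to 2.33), from 0.45 to 1.77 RPKM, and made up less than 1% of the aldolase RPKM in both libraries. Its call was lost after removal of the running median at its level, with 0.87, and with a pseudocount of 1, with 0.93. Among the 27 genes with a mean level of at least 10 RPKM, the largest ratio belonged to Tpi1, which interconverts the trioses so that both can go on to pyruvate. Tpi1 (chromosome 6, 124810586 to 124814296, minus strand) was at 33.88 RPKM in PBS and 150.7 RPKM with exosomes, a ratio of 4.45 and a log2 fold change of 2.15 (2.10 to 2.21). In PBS its level was far under that of Aldoa, with a ratio of 0.0503, and with exosomes the ratio was 0.165.

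The 6 genes of lower glycolysis lay within 2-fold, and their median log2 fold change was 0.32. Pgk1, which makes the first ATP of the pathway, was at 145.86 RPKM in PBS and 258.62 RPKM with exosomes, a log2 fold change of 0.83 (0.80 to 0.85). Pgam1, the phosphoglycerate mutase, was at 158.87 and 316.73 RPKM, a ratio of 1.99 that just missed the call. Eno1, the main enolase, was at 344.14 and 420.7 RPKM, a log2 fold change of 0.29 that turned below zero after median centring. The muscle-type Eno3 was low, with 6.03 and 4.93 RPKM. Pkm, pyruvate kinase, the last enzyme of glycolysis, was at 728.55 RPKM in PBS and 715.64 RPKM with exosomes, a log2 fold change of -0.03 (-0.04 to -0.01). As deposited, Pkm, the most abundant of the 6, thus differed least, whereas after median centring it was at -0.55 and Gapdh was nearest to zero.

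Gapdh, which links the trioses to lower glycolysis, stood apart from its neighbours in level. It was at 11.85 RPKM in PBS and 15.06 RPKM with exosomes, with ranks of 3249 and 3375, while Aldoa and Pkm, acting before and after it, were at 673.24 and 728.55 RPKM in PBS. Gapdh also has many near-identical copies in the mouse genome. Of the 50-base windows of its longest coding transcript in GENCODE M21, 82.5% occur in another annotated gene. Those windows touch 222 other genes, of which 206 are pseudogenes. The tables list 188 of these pseudogenes, and all 188 stand at 0 in both libraries. How reads that match several genes were counted is not given in the sources used here, so the level of Gapdh is uncertain. The same holds in part for Eno1 (72.2% of windows shared), Pgk1 (68.0%), Pgam1 (41.5%), Pkm (34.4%) and Pdhb (30.3%). To a smaller extent it holds for Ldhb, Gpi1, Rpe, Pfkp, Pdha1, Ldha, Aldoa, Taldo1 and G6pdx, each with over 10% shared. Pfkp shares 17.1% of its windows with Pitrm1, which was at 0.55 RPKM in PBS and 3.27 RPKM with exosomes. Pdha1 shares windows mostly with Map3k15, at 26.71 RPKM in PBS and 12.48 RPKM with exosomes. The part of shared windows in the values of these genes was not tested.

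Slc2a3, Hk2 and Hk3 share no window with another gene, Tpi1 shares 7.51% and Ldha 16.6%. The 19 kept genes with under 10% of shared windows were also counted alone, a choice made after seeing the data. Of these 19, 6 rose and 3 fell, where 31.5% of all features kept were up and 5.62% down. Their median log2 fold change was 0.35, beside 0.53 for all features. All 3 decreases among the 35 genes were among these 19.

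Gapdh served the study as the reference of its RT-qPCR. Its log2 fold change here was 0.35 (0.24 to 0.46) as deposited and -0.18 after median centring. Of 10 genes often used as references, Actb (-0.07) and Ywhaz (0.03) were nearest to zero and B2m (1.19), Hprt (2.28) and Ppia (2.89) rose. Gapdh lay between them. Il1b, the cytokine gene the study followed, was at 1268 RPKM in PBS and 2678 RPKM with exosomes, a log2 fold change of 1.08. Expressed relative to Gapdh within each library, the log2 fold change of Il1b was 0.73. Because the sequenced level of Gapdh is uncertain, as given above, this value cannot be set against the RT-qPCR of the study.

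**Figure D3:**
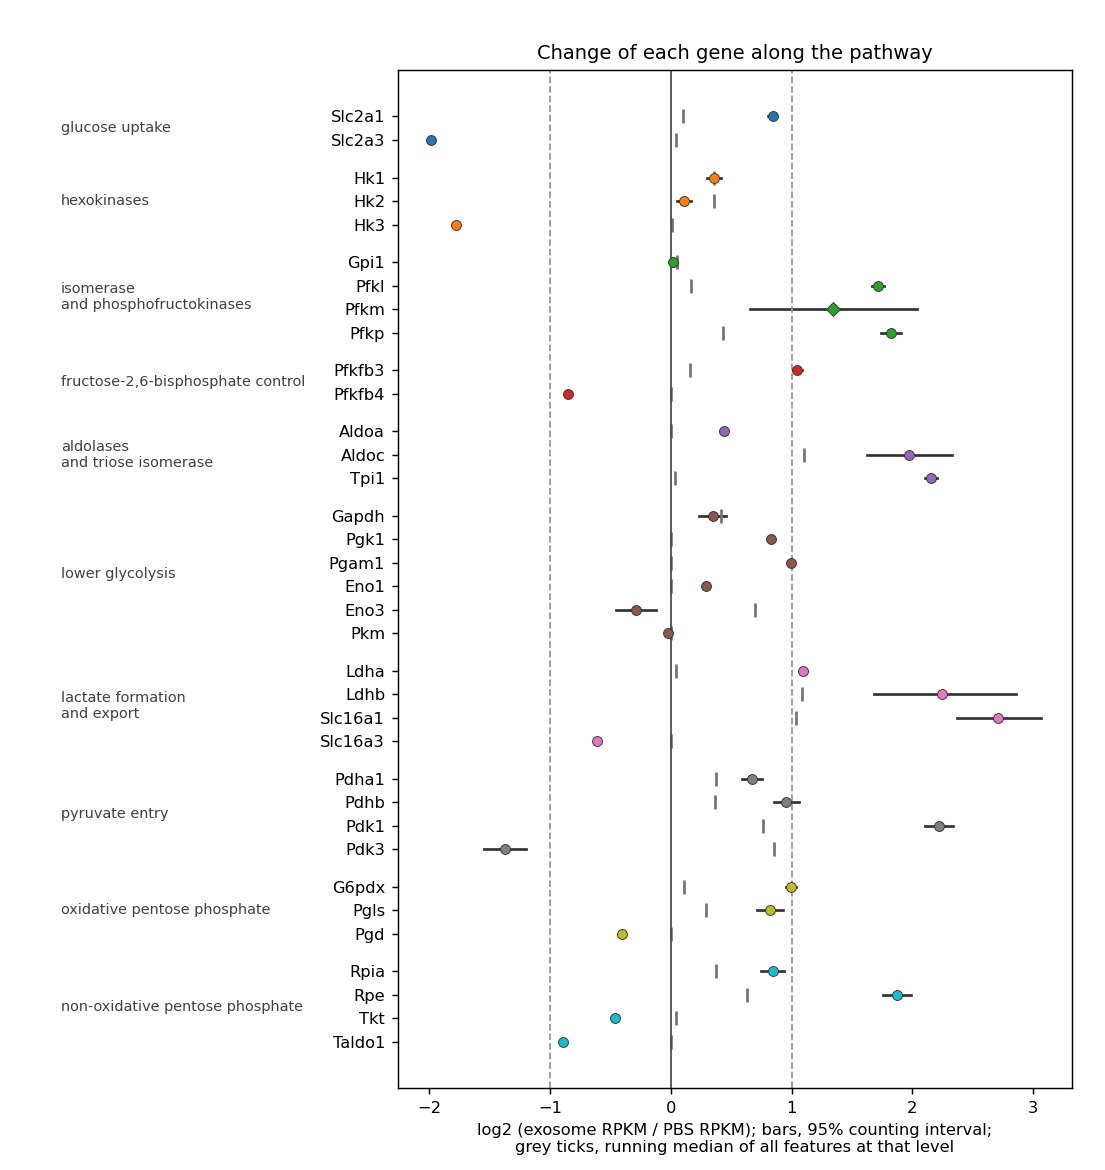
log2 fold change between the exosome and PBS libraries (horizontal axis) for the 35 genes by step, with the 95% counting interval as a bar and the running median of all features at the same level as a grey tick; the dashed lines mark a 2-fold ratio and the diamond is Pfkm, which was not kept. Tpi1, Pfkl and Pfkp lie to the right of their ticks, Slc2a3, Hk3 and Pdk3 to the left, while Gpi1, Hk1, Gapdh and Pkm lie on or beside theirs.

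Pyruvate leaves glycolysis as lactate or enters the mitochondrion. Ldha, the lactate dehydrogenase subunit that favours lactate, was at 93.08 RPKM in PBS and 198.68 RPKM with exosomes, a log2 fold change of 1.09 (1.06 to 1.13). The call was lost after median centring, with 0.57, and kept after removal of the running median at its level, with 1.05. Ldhb, the subunit that favours pyruvate, was at 0.35 RPKM in PBS and 1.66 RPKM with exosomes and rose by 2.25 on the log2 scale (1.68 to 2.86). It still made up less than 1% of the lactate dehydrogenase RPKM in both libraries.

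Lactate leaves the cell through proton-coupled transporters. Slc16a3, which encodes the export form MCT4, was abundant, with 357.62 RPKM in PBS and 233.71 RPKM with exosomes, a log2 fold change of -0.61 (-0.63 to -0.60). It was called down after median centring, with -1.14, but not after removal of the running median at its level, with -0.61. Slc16a1, which encodes MCT1, a carrier for lactate in either direction (chromosome 3, 104638668 to 104658462, plus strand), was called up, with 0.27 RPKM in PBS and 1.77 RPKM with exosomes. Its log2 fold change of 2.71 (2.37 to 3.07) was the highest of the 34 genes kept, and it lies only just above the 0.25 RPKM needed to be kept in PBS. Slc16a3 exceeded Slc16a1 by a factor of 1325 in PBS and 132 with exosomes. Bsg, which encodes basigin, the chaperone of both carriers, was at 30.17 and 70.71 RPKM, a log2 fold change of 1.23.

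The pyruvate dehydrogenase complex turns pyruvate into acetyl-CoA, and its kinases switch it off. Pdha1 and Pdhb, the subunits of its first enzyme, were at 9.22 and 10.77 RPKM in PBS and at 14.71 and 20.89 RPKM with exosomes, with log2 fold changes of 0.67 (0.59 to 0.76) and 0.96 (0.85 to 1.06). Neither reached the call. The kinases moved in opposite directions. Pdk1 (chromosome 2, 71873224 to 71903858, plus strand), a known target of hypoxia-inducible factor, had 2.09 RPKM in PBS and 9.75 RPKM with exosomes, and rose 4.67-fold, or by 2.22 on the log2 scale (2.11 to 2.34). Pdk3 was at 6.11 RPKM in PBS and 2.36 RPKM with exosomes, a log2 fold change of -1.37 (-1.55 to -1.20).

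The ratio of Pdk1 to Pdk3 was 0.342 in PBS and 4.13 with exosomes, a 12.1-fold difference and the largest switch between isozymes among the 10 families examined. Pdk1 made up 25.5% of the pair in PBS and 80.5% with exosomes. By estimated reads, which give a long transcript more weight, the shares were 45.6% and 91.0%. The ratio of both kinases together to Pdha1 was 0.889 in PBS and 0.823 with exosomes, so their summed level beside the enzyme was nearly the same while the isozyme was another.

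G6pdx, glucose-6-phosphate dehydrogenase, is the entry enzyme of the pentose phosphate pathway and the first source of NADPH. It was at 38.52 RPKM in PBS and 76.95 RPKM with exosomes, and its log2 fold change of 0.998 (0.96 to 1.04) lay just under the call. Pgls, the lactonase that follows it, was at 14.9 and 26.32 RPKM, a log2 fold change of 0.82 (0.71 to 0.93). Pgd, which makes the second NADPH, was the most abundant of the oxidative arm, with 483.21 RPKM in PBS and 364.5 RPKM with exosomes, a log2 fold change of -0.41 (-0.42 to -0.39). The 2 dehydrogenases thus stood in a ratio of G6pdx to Pgd of 0.0797 in PBS and 0.211 with exosomes.

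At the branch point, G6pdx was 0.173 of the summed hexokinases in PBS and 0.878 of them with exosomes. The entry enzyme of the branch thus stood 5.07-fold higher beside the hexokinases in the exosome library than in PBS, since G6pdx was higher and Hk3 lower.

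The non-oxidative arm held the most abundant of the 35 transcripts in PBS. Taldo1, transaldolase, was at 882.2 RPKM in PBS (rank 27) and 476.16 RPKM with exosomes (rank 66), a log2 fold change of -0.89 (-0.91 to -0.87). Tkt, transketolase, was at 144.61 and 105.05 RPKM, a log2 fold change of -0.46 (-0.48 to -0.44). Neither was called as deposited, but Taldo1 passed the call after median centring, with -1.42. After removal of the running median at its level, Taldo1 was at -0.89 and was not called. The pair of enzymes that convert ribulose-5-phosphate lay on the other side: Rpia, the isomerase to ribose-5-phosphate, was at 10.9 and 19.56 RPKM, and Rpe, the epimerase to xylulose-5-phosphate, rose from 4.13 to 15.13 RPKM. The log2 fold change of Rpe was 1.87 (1.76 to 1.99). Of its windows, 19.1% are shared, mostly with the overlapping gene Kansl1l, which was at 16.19 RPKM in PBS and 9.65 RPKM with exosomes.

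In the non-oxidative arm, abundant and scarce enzymes thus differed in opposite directions, and the sum of the 4 genes was 1042 RPKM in PBS and 616 RPKM with exosomes. The oxidative arm summed to 537 and 468 RPKM. The ratio of G6pdx to Taldo1 was 0.0437 in PBS and 0.162 with exosomes, a 3.70-fold difference.

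Because features of low level lay higher throughout the data, the calls were counted again within the same range of level, a choice made after seeing the data. Of the 27 genes with a mean of at least 10 RPKM, 5 rose (18.5%) and 2 fell (7.41%), and over the 4088 features of that range the shares were 16.8% and 6.82%. Median centring of all kept features gave 8 up (23.5%) and 6 down (17.6%), where all features had 16.8% and 13.2%. Removal of a trimmed mean gave 8 up (23.5%) and 7 down (20.6%), where all features had 16.4% and 13.6%. Removal of the running median gave 8 up (23.5%) and 3 down (8.82%), where all features had 12.6% and 13.6%.

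As deposited and after each of the 3 centrings, 7 genes were called up, namely Pfkl, Pfkp, Tpi1, Ldhb, Slc16a1, Pdk1 and Rpe. The 3 that fell, Slc2a3, Hk3 and Pdk3, were also called down in all of these. At a ratio of at least 4, Tpi1, Ldhb, Slc16a1 and Pdk1 were up and none of the 34 genes was down, where all features had 8.52% and 1.14%. With a pseudocount of 1 RPKM, Aldoc and Ldhb were no longer called, at 0.93 and 0.98. Rescaled to TPM, 13 genes were up, the additional ones being Pgam1 (1.04), Pdhb (1.003) and G6pdx (1.05), all just past the threshold.

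**Figure D4:**
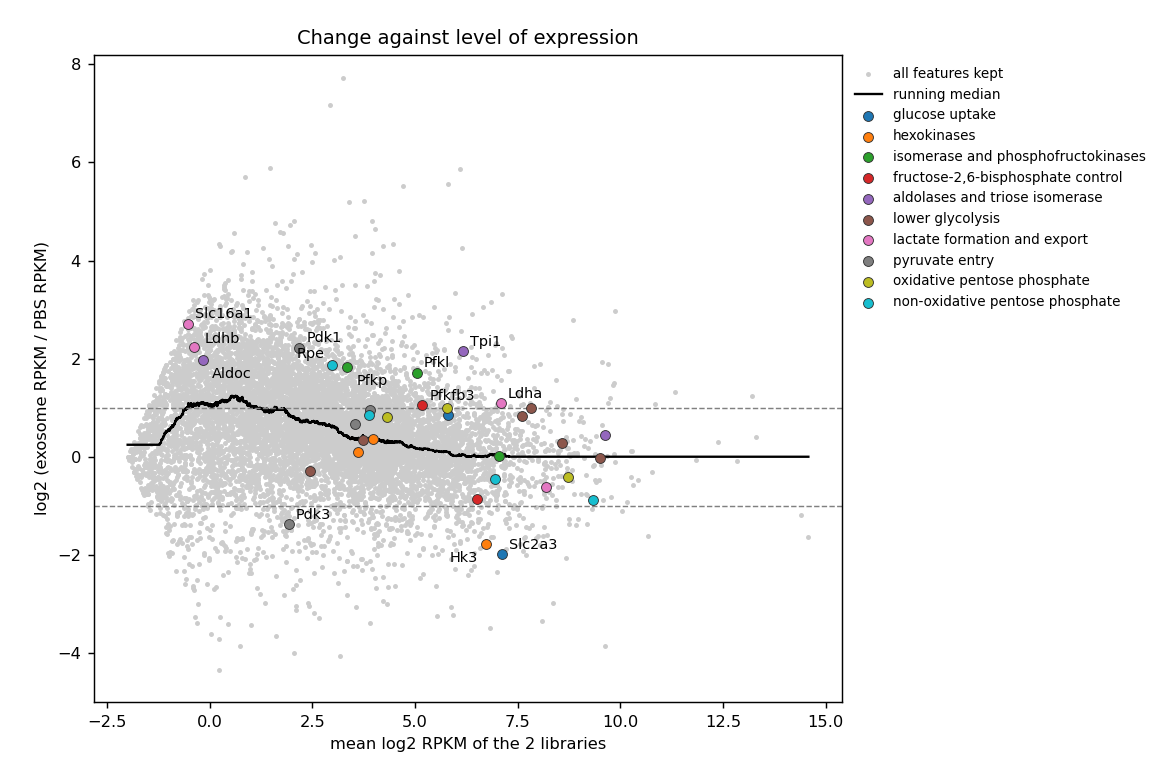
log2 fold change between the exosome and PBS libraries (vertical axis) against the mean log2 RPKM of both libraries (horizontal axis) for the 9698 features kept (grey), with their running median over 501 features (black) and the 34 genes kept, coloured by step. Ldhb, Aldoc and Slc16a1 lie where the median of all features is itself near 1, while Pfkl, Tpi1 and Ldha, Hk3 and Slc2a3 stand away from a median near zero.

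A list of 62 further genes of these pathways was counted in the same way. Of the 37 kept, 18 rose (48.6%, where all features had 31.5%) and Adpgk alone fell (2.70%, where all features had 5.62%), with a median log2 fold change of 0.97. After the 3 centrings 9 to 11 of these 37 were called up and 5 down, where all features had 12.6% to 16.8% up and 13.2% to 13.6% down. These genes are given by role. Around glucose-6-phosphate and glycogen, G6pc3, the glucose-6-phosphatase subunit on which neutrophil survival depends, rose from 0.66 to 5.17 RPKM (log2 fold change 2.97). Its transporter Slc37a4 rose from 1.82 to 4.45 RPKM (log2 fold change 1.29, where the running median at its level was 0.92). The phosphoglucomutases Pgm1 and Pgm2 rose from 8.77 and 2.09 to 25.43 and 11.08 RPKM. Loss of either G6pc3 or Slc37a4 is a known cause of neutropenia. Pygl, the liver-type glycogen phosphorylase, was at 449.51 RPKM in PBS and 385.99 RPKM with exosomes. Pygb, the brain type, rose from 0.98 to 2.53 RPKM (log2 fold change 1.37, where the running median at its level was 1.23).

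Among genes of ribose metabolism, Dera, deoxyribose-phosphate aldolase, rose from 0.92 to 6.15 RPKM (log2 fold change 2.74) and Prps1, which makes phosphoribosyl pyrophosphate, from 0.76 to 3.45 RPKM (2.18). In pyruvate entry, Dlat (1.40) and Pdhx (2.27) of the dehydrogenase core and the kinase Pdk2 (1.13) rose. The running medians at their levels were 0.96, 1.12 and 1 in that order. The remaining genes that rose were Slc2a9, Pfkfb2, Bpgm, Minpp1, Bsg, Pgm3, Gpd2 and Tigar, listed under an older name. Of the 18, only Bsg, Pgm1 and Gpd2 were above 5 RPKM in PBS. With at least 1 RPKM in both libraries, 6 were called up and the median log2 fold change of the list was 0.34. The share of all features called at that minimum was not counted.

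**Figure D5:**
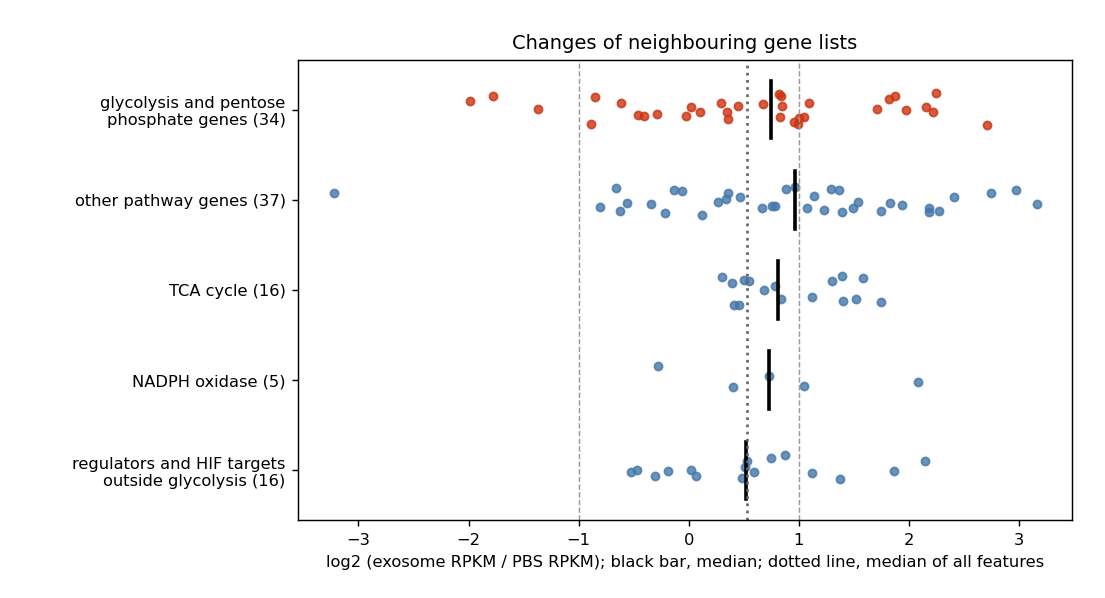
log2 fold change between the exosome and PBS libraries (horizontal axis) for the genes kept in 5 lists, with the number kept in brackets, the list median as a black bar and the median of all 9698 features as a dotted line; the dashed lines mark a 2-fold ratio. The 34 genes span -1.99 to 2.71, and all 16 genes of the TCA cycle lie above zero.

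The TCA cycle, the NADPH oxidase and regulators were set beside the pathway. In the TCA cycle, which burns the acetyl-CoA from pyruvate, 7 of 16 genes rose (43.8%, where all features had 31.5%) and none fell, with log2 fold changes of 0.30 to 1.74 and a median of 0.81. Those that rose were Idh3a, Idh3b, Suclg1, Suclg2, Sucla2, Sdhc and Fh1. After each of the 3 centrings 2 of the 16 genes were called up, where 12.6% to 16.8% of all features were. Of the 5 NADPH oxidase genes reported here, which use NADPH from the pentose phosphate pathway, 2 rose, a list too short to set against the 31.5% of all features. Cybb, its catalytic subunit, rose from 69.67 to 295.08 RPKM and Ncf4, a cytosolic subunit, from 243.37 to 501.93 RPKM. The call of Ncf4, with a log2 fold change of 1.04, was lost after median centring or removal of the trimmed mean.

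Of 18 regulators and hypoxia-inducible factor targets outside glycolysis, 16 were kept, 4 rose (25.0%, where all features had 31.5%) and none fell. Hif1a, the hypoxia-inducible subunit itself, rose from 38.96 to 84.52 RPKM (log2 fold change 1.12). Egln1, which marks it for decay (1.37), Ankrd37 (1.86) and P4ha1 (2.15) rose too. After median centring Hif1a and Egln1 were no longer called, and 2 genes were up and 1 down. After removal of the running median at their level, all 4 were still called up and 0 genes were down. The other 12 genes kept lay within 2-fold, from -0.53 for Ndrg1 to 0.87 for Adm. The median of the list was 0.52, beside 0.53 for all features.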

How the data were processed

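Reads of both mRNA libraries (HiSeq 2500) were trimmed at Phred 20 and analysed in CLC Genomics Workbench 8.0 by the authors, who deposited 1 RPKM value per feature and library. Per the labels, the build was mm10. The annotation, the handling of reads with several matches and any scaling between the libraries are not given in the sources used here. RPKM are not counts, and no count model was fitted.

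The genes and lists were chosen with earlier results of these data known. All 35 genes are named whatever their change. Of the other lists, those kept that changed at least 2-fold are named, and a few references or markers beside a result. Slc2a6, Pygl, Ndrg1 and Adm were named after their values were seen. A gene of the NADPH oxidase list is not reported here.

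Reads were estimated as RPKM times the longest coding transcript of the symbol (GENCODE M21, GRCm38) times the mapped reads. The latter came from features under 0.01 RPKM that stand for 1 read: 245 of 918 in PBS and 281 of 1064 with exosomes gave the same total. Counting intervals are exact Clopper-Pearson intervals at 95%, and these lengths need not be those the authors used. Shared windows are 50-base stretches of that transcript found in another GENCODE gene on either strand. Promoters came from RefSeq (GRCm38.p6), and only the 250 bases before each start were searched.

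Alternatives were median centring, removal of a trimmed mean (30% of ratios and 5% of means left out at each end), removal of a running median over 501 features, TPM, a minimum of 1 RPKM, a minimum of 0.25 RPKM in only 1 of the libraries (pseudocount 0.25), a pseudocount of 1, a 4-fold threshold, and isozyme shares by estimated reads. Scripts were run in Python 3.11.15 with numpy 2.4.6 and scipy 1.17.1 and tested on simulated data.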

Additional observations from a re-analysis of the deposited data

How the results depend on the processing

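With 1 library per group, no value has a replicate error, and a library left out leaves nothing to compare. No paired analysis was possible because each group has 1 library and the labels carry no replicate numbers. Of 469 values recomputed, 374 stayed the same. For single genes and step medians this meant the same direction and side of the threshold. For counts, list medians and shares it meant a change within a set tolerance, so a list median could turn sign. The regulators median was 0.52 as deposited, -0.0054 after median centring and -0.021 after the trimmed mean. Among single genes and step medians, 20 lost a call, 12 gained a call and 27 turned sign. Of the counts, list medians and shares, 36 moved. The cause was not tested, except that median and trimmed-mean centring lower every log2 value by a fixed amount. A ratio of 4 left 4 of the 35 genes up and 0 down. Genes with under 10% shared windows gave 6 up, and those of at least 10 RPKM gave 5 up, both added after seeing the data. Median centring gave 6 down and the trimmed mean 7.

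For the settings median, trimmed mean and running median in that order, the other pathway genes had 11, 10 and 9 up and 5, 5 and 5 down. They had 6 up and a median of 0.34 at an RPKM of at least 1, 10 up with a pseudocount of 1 and 7 up at a ratio of 4. The TCA cycle had 2, 2 and 2 up under these centrings with medians of 0.29 and 0.27 under the first pair, 4 up with a pseudocount of 1 and 0 at a ratio of 4. The NADPH oxidase had 1 up under median centring, the trimmed mean and a ratio of 4. The regulators had 2 and 2 up and 1 and 2 down under median and trimmed mean, and 1 up at a ratio of 4.

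In the same order, step medians were -1.10 and -1.11 for glucose uptake, -0.42, -0.44 and -0.25 for hexokinases, -0.43 and -0.44 for the Pfkfb enzymes, -0.21 and -0.22 for lower glycolysis, and -0.34, -0.35 and -0.014 for the non-oxidative arm. Aldolases and triose isomerase had 0.87 after the running median and 0.93 with a pseudocount of 1, and lactate formation and export had 0.24 at an RPKM of at least 1. Single genes that turned were Hk1 (-0.17, -0.19 and -0.000756), Hk2 (-0.42, -0.44 and -0.25), Gpi1 (-0.51, -0.52 and -0.031), Gapdh (-0.18, -0.20 and -0.069), Aldoa (-0.083 and -0.098), Eno1 (-0.24 and -0.25) and, by TPM, Pkm (0.022). By estimated reads, the share in the exosome library minus that in PBS was 35.8 points for Slc2a1, 15.3 for Hk1, 29.3 for Pfkfb3, -0.226 for Aldoa and 45.4 for Pdk1.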
